A study of Homo sapiens with 9 samples.

Results

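The ChIP-seq peaks of ARID2 in HepG2 cells were divided by whether SNF5 was found at the same place. A peak of the deposited ARID2 list was counted as "with SNF5" where any peak of the deposited SNF5 list overlapped it, by 1 bp or more, and as "without SNF5" otherwise. Of 12995 ARID2 peaks, 8732 were with SNF5 and 4263 were without. HepG2 is an established line derived from a hepatocellular carcinoma, and all samples came from these cells with no treatment named in the labels. Each antibody, Bethyl A302-230A for ARID2 and Bethyl A301-087A for SNF5, was used on 2 replicate chromatin samples, whose reads the authors turned into 1 peak list per protein. The lists therefore hold no replicate error and no read depth, the intervals below cover counting error over peaks only, and no p-value was computed because peaks are not replicates.

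SWI/SNF complexes use ATP to slide or evict nucleosomes, and they come in versions that share core subunits and differ in their signature subunits. ARID2 marks the PBAF version, while ARID1A and ARID1B mark the BAF versions. The core subunit SNF5 (BAF47, product of the SMARCB1 gene) belongs to both. The comparison asks where in the genome a called site of the PBAF signature subunit also carried a called site of the core subunit.

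A few peaks are shown first, because base composition set both kinds of peak apart at promoters. CpG dinucleotides, the pairs of C followed by G that are dense in CpG island promoters, are in capitals. The sequences are the forward strand of hg19. In each of 4 groups the peak of 100 to 300 bp near a listed gene, outside annotated UTRs, with the GC content nearest the median of its group was taken. The promoter examples lie near CDKN1A, an inhibitor of cyclin-dependent kinases, and ACSS2, an acetyl-CoA synthetase. The other examples lie upstream of HMOX1, the inducible heme oxygenase, and in an intron of SMARCC1, a core subunit of SWI/SNF itself.
CDKN1A with SNF5, chr6:36644900-36645083: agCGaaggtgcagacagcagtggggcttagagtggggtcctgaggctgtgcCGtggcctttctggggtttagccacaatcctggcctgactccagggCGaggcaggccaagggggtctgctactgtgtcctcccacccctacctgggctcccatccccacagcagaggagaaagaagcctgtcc
ACSS2 without SNF5, chr20:33464784-33465052: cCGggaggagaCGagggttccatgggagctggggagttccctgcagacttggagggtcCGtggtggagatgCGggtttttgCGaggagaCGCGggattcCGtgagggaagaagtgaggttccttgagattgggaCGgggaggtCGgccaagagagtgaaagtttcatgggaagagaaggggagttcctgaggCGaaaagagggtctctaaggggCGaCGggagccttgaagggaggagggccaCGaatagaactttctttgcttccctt
HMOX1 with SNF5, chr22:35774677-35774879: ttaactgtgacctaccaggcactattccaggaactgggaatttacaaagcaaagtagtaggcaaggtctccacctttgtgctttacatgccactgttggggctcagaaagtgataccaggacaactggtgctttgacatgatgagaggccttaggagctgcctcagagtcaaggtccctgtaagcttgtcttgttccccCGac
SMARCC1 without SNF5, chr3:47822132-47822255: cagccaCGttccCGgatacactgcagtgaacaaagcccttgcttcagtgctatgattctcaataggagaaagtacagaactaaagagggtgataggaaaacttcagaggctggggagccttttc
The CDKN1A peak was 63.0% GC with 3 CpG, lay 594 bp from the nearest TSS and shared only 12 bp with its SNF5 peak. The ACSS2 peak was 58.0% GC with 14 CpG, lay 490 bp from the TSS and ended 204 bp from an SNF5 peak. These examples were matched on GC content alone, and between them the peak without SNF5 held more CpG, unlike their groups as a whole. The HMOX1 peak was covered by SNF5 over its full 203 bp, was 49.3% GC and lay 1574 bp from the TSS. The SMARCC1 peak was 47.6% GC, lay 1175 bp from the TSS and stopped 145 bp short of an SNF5 peak. None of the 4 overlapped an annotated exon.

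SNF5 overlap was most frequent at promoters and least frequent in introns. The promoter class of the ARID2 list held peaks up to 998 bp from a TSS. Among all ARID2 peaks 67.2% overlapped SNF5, against 70.5% of the 8705 promoter peaks, 64.4% of the 1772 distal peaks, 58.8% of the 245 exon peaks and 57.6% of the 2273 intron peaks. Seen from the other direction, promoters made up 70.3% of peaks with SNF5 and 60.3% of peaks without. The difference was 10.0 percentage points with a 95% Newcombe interval of 8.26 to 11.8. Its size depended on the rule. It was 2.01 points when a TSS distance of up to 5000 bp stood in for the class, 18.3 points when a gap of up to 1000 bp counted as overlap and 5.92 points within strata of peak width. Introns made up 15.0% and 22.6%, a difference of -7.59 points with an interval of -9.06 to -6.14. The distal class differed by only -1.70 points with an interval of -3.00 to -0.438, and in 7 of 13 alternatives it lost its call or its sign. The promoter share was higher among peaks with SNF5 on 22 of 22 autosomes, from 1.26 points on chromosome 20 to 28.4 points on chromosome 21. The intron share was lower on 21 of the 22, chromosome 20 being the exception.

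**Figure D1:**
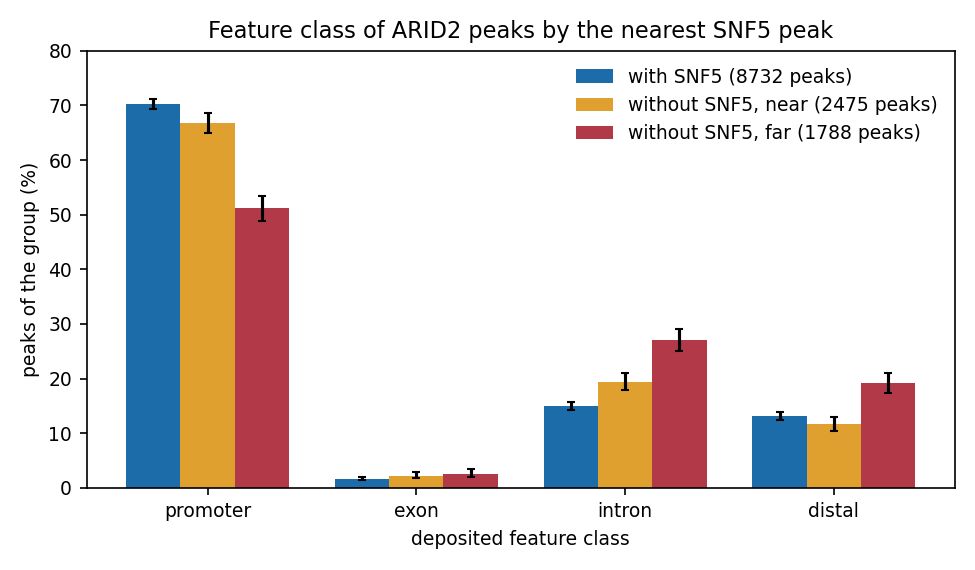
Share of each deposited feature class (y axis, % of the group) among ARID2 peaks with SNF5, without SNF5 but within 1000 bp of an SNF5 peak (near), and farther away (far). Bars are shares and error bars are 95% Wilson intervals. Promoters fell from 70.3% with SNF5 to 66.8% in the near group and 51.2% in the far group, while introns rose from 15.0% to 19.4% and 27.0%.

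Most ARID2 peaks without SNF5 were still neighbours of an SNF5 peak. The median gap from such a peak to the nearest SNF5 peak was 651 bp, 628 of the 4263 lay within 100 bp and 2475 lay within 1000 bp. The remaining 1788 were farther away. The gap of the distal class was the widest, with a median of 1374 bp against 482 bp for promoters and 1013 bp for introns. At the boundary of the overlap rule, 78 peaks overlapped SNF5 by at most 10 bp and 70 missed it by at most 10 bp. Those just inside had a median width of 122 bp, a median GC content of 55.2% and 24.4% with the label multiple. Those just outside had 152 bp, 54.3% and 31.4%. On the GC content and the label, both sets lay nearer to the peaks without SNF5 than to the peaks with it. The promoter share went the other way. It was 75.6% just inside and 72.9% just outside, against 70.3% of all peaks with SNF5 and 60.3% of those without.

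**Figure D2:**
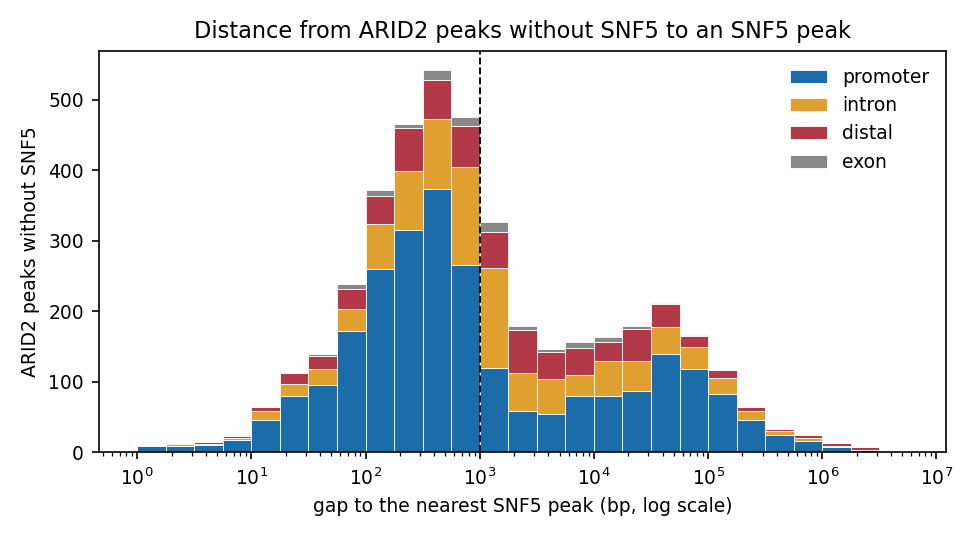
Number of ARID2 peaks without SNF5 (y axis) by the gap to the nearest SNF5 peak (x axis, bp, log scale), stacked by feature class, with the 1000 bp limit between near and far as a dashed line. Promoter peaks form a mass below 1000 bp and a smaller second one above 10000 bp, and 3282 of all 4263 peaks lay within 10000 bp.

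At promoters the near group mostly lay on the outer side of an SNF5 peak, farther from the gene start than SNF5. Of 1653 near promoter peaks, 902 (54.6%) had their SNF5 neighbour on the side of the nearest transcript start and 207 (12.5%) on the side away from it. Another 276 had SNF5 peaks on both sides and 268 held the transcript start themselves. Near promoter peaks lay a median of 354 bp from the TSS (95% interval of the median 329 to 382). Promoter peaks with SNF5 lay at 131 bp (124 to 138), and far promoter peaks were in between at 172 bp (152 to 200). The 3 intervals did not overlap.

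The same order was seen among peaks named for the same gene, which can have more than 1 start. At 525 gene names with exactly 1 promoter peak of each kind, the peak with SNF5 was the closer one to the TSS in 408 and the farther one in 116. The median distance was 107 bp with SNF5 and 459 bp without. The peak with SNF5 was also the wider one in 372 and the narrower one in 147, and it was richer in CpG in 395 and poorer in 128. Median CpG content was 8.16 per 100 bp with SNF5 and 3.43 without.

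Along the genome axis, SNF5 overlap dipped at 500 to 2000 bp from a TSS and was higher again beyond. The promoter class ran to 998 bp, so the dip began inside that class. The overlap was 78.2% (95% Wilson interval 76.8 to 79.6) within 100 bp of a TSS, 55.1% (52.7 to 57.4) at 500 to 1000 bp and 53.9% (51.1 to 56.6) at 1000 to 2000 bp. It was higher again at 5000 to 10000 bp, at 65.0% (61.4 to 68.4). The dip was deeper inside the transcription unit than in front of it. At 500 to 1000 bp, 60.4% of 601 upstream peaks overlapped SNF5 against 52.4% of 1131 downstream peaks, a difference of 7.97 points (3.06 to 12.8). The median widths were alike there, at 179 and 178 bp, but 34.8% of the upstream and 25.6% of the downstream peaks carried the label multiple, and the part of that label in the difference was not tested. Within 500 bp the difference was 2.96 points (0.957 to 4.97).

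**Figure D3:**
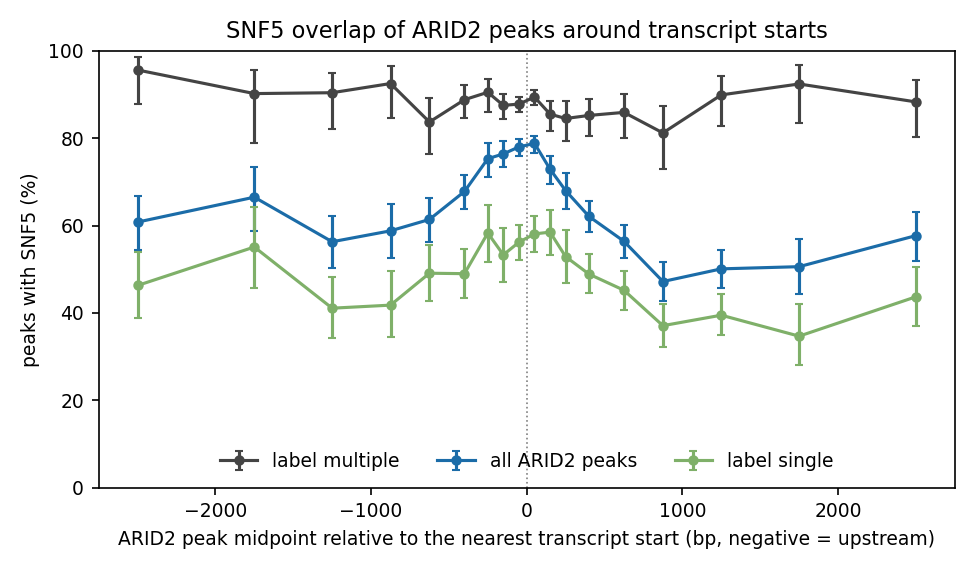
Share of ARID2 peaks with SNF5 (y axis, %) by position of the peak midpoint relative to the nearest transcript start (x axis, bp), for all peaks and by deposited label, with 95% Wilson intervals. Over all peaks the share is 78.8% in the first 100 bp downstream and lowest, at 47.2%, at 750 to 1000 bp downstream, while peaks with the label multiple stay high throughout.

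In introns, peaks with SNF5 lay farther from the TSS. There the median TSS distance was 3528 bp with SNF5 (95% interval 3157 to 3965) and 2430 bp without (2166 to 2694). In the distal class it was 7871 bp (7196 to 8621) against 6846 bp (5826 to 8037), with overlapping intervals. Over both classes together the ratio of medians was 1.42. It rested on the near peaks. The intron peaks near SNF5 lay at 1808 bp, and with near peaks left out the ratio was 1.03 and the intervals overlapped.

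ARID2 peaks with SNF5 were wider in the promoter, intron and distal classes. The median was 219 bp with SNF5 (215 to 223) and 145 bp without (142 to 149), a ratio of 1.51. In promoters the medians were 234 and 154 bp, in introns 194 and 138 bp, and in the distal class 198 and 130.5 bp. In the small exon class they were 180.5 bp (148 to 221) and 135 bp (111 to 151), with overlapping intervals. When all ARID2 peaks were cut into 10 bins by width, SNF5 overlap was 47.6% in the narrowest bin (52 to 64 bp) and 95.9% in the widest (505 to 3929 bp). It stayed between 57.9% and 62.6% from 99 to 222 bp and climbed above that. A wide peak can touch another list more easily, so the count was repeated with the ARID2 midpoint alone. The midpoint fell inside an SNF5 peak for 44.9% of the narrowest and 90.0% of the widest bin. Among intron peaks the overlap went from 38.1% to 94.7% and among distal peaks from 41.4% to 96.9%.

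**Figure D4:**
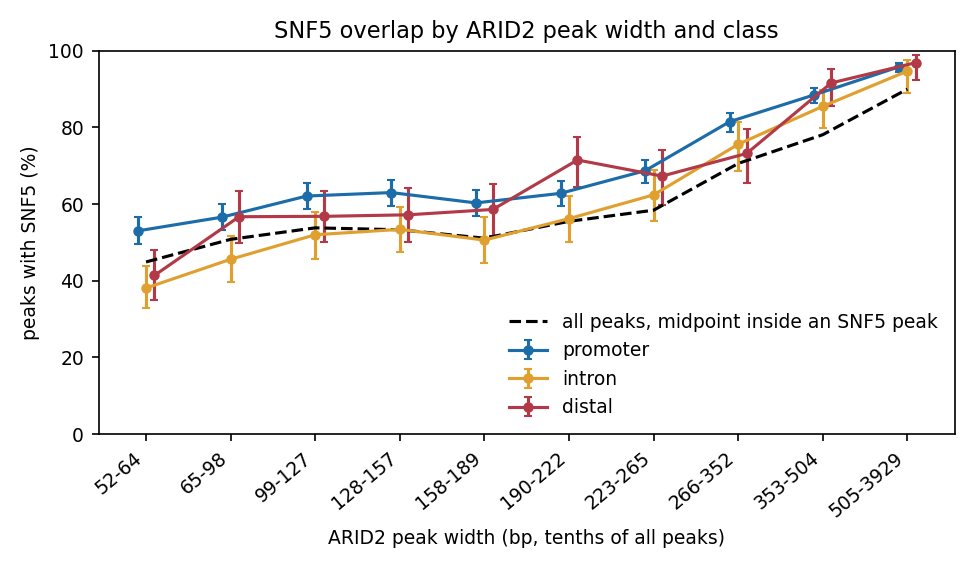
Share of ARID2 peaks with SNF5 (y axis, %) in 10 bins of ARID2 peak width (x axis, bp), by class with 95% Wilson intervals. The dashed line is the share of all ARID2 peaks whose midpoint lay inside an SNF5 peak. All 3 classes end near 95% in the widest bin, and introns start lowest at 38.1%.

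The widest promoter peak with SNF5 covered 3929 bp at ID1, a dominant-negative helix-loop-helix factor induced by BMP signalling (chr20:30191828-30195756), inside an SNF5 peak that ran from 30191254 to 30200645. Next came ARHGAP5, a GTPase-activating protein, with 3171 bp, SP5, an SP-family factor downstream of Wnt, with 2751 bp, ZNF217, a zinc finger oncogene, with 2605 bp, and BRD2, a BET bromodomain protein, with 2368 bp. All 5 carried the label multiple. Outside promoters the widest with SNF5 were at JPH4 (2443 bp), FOXQ1 (1749 bp), AC011753.6 (1740 bp), SOX9 (1579 bp) and SNX5 (1566 bp). Without SNF5 the widest promoter peak reached 1111 bp, at TPST1, a tyrosylprotein sulfotransferase, with the nearest SNF5 peak 4547 bp away. It was followed by SREK1IP1 at 941 bp, METTL7A at 938 bp, CTD-2007H13.3 at 883 bp and CCDC58 at 779 bp. The SREK1IP1 peak stood 415998 bp from SNF5, while those at METTL7A, CTD-2007H13.3 and CCDC58 were within 466 bp of it. The widest intron or distal peaks without SNF5 were at LINC00669 (1212 bp), CDKN2C (692 bp), CD7 (676 bp), PGAP1 (670 bp) and MAFK (609 bp). Every peak with SNF5 named in this paragraph lay on the 6 autosomes of highest SNF5 share described below. None of the promoter peaks without SNF5 named here did, while the intron and distal ones lay both on and off them. The part of the chromosome in these rankings was not tested.

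The label that the ARID2 list gives each peak, multiple where the authors found another ARID subunit and single where they did not, separated the groups more than class or distance did. It was multiple for 61.8% of peaks with SNF5 and 16.7% without, a difference of 45.1 points (43.6 to 46.6). Within either label the classes behaved differently. Among single peaks SNF5 overlap was 51.1% in promoters (49.6 to 52.7), 46.0% in the distal class (43.0 to 49.0) and 44.0% in introns (41.6 to 46.4). Among multiple peaks the order was turned round, with 92.2% in the distal class (90.0 to 94.0), 92.0% in introns (89.6 to 93.8) and 87.4% in promoters (86.4 to 88.3). The promoter share was accordingly 6.30 points higher with SNF5 among single peaks (3.98 to 8.62) and lower among multiple peaks, with a difference of -7.24 points (-10.1 to -4.06). The promoter excess over all ARID2 peaks thus did not hold among peaks shared with another ARID subunit.

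Base composition differed mainly in promoters. Median GC content was 59.5% with SNF5 (59.0 to 59.7) and 52.4% without (51.9 to 52.9). In promoters it was 63.0% and 56.6%, in introns 48.5% and 46.2%, and in the distal class 50.7% and 49.7%, the last with overlapping intervals. Near promoter peaks were lowest at 54.8% (53.9 to 55.6), and far promoter peaks had 60.2% (58.9 to 61.3). Part of this followed position. Within 200 bp of the TSS the medians were 65.7% with SNF5, 62.9% in the near group and 64.3% in the far group. At 200 to 500 bp they were 59.8%, 53.8% and 56.7%. At 500 to 1000 bp they were 53.8%, 48.9% and 51.3%. In all 3 distance ranges the interval with SNF5 lay above that of the near group. The near and far intervals overlapped in all 3, so near and far peaks were not called different at a matched distance. Among peaks with the label multiple the GC difference over all classes was -0.864 points, the opposite sign, and among single peaks it was 2.81 points, both smaller in size than the 7.07 points over all peaks.

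Several short motifs of promoter factors were more frequent in promoter windows with SNF5. The 300 bp around each peak midpoint were searched on both strands for 17 motifs, and promoter windows with SNF5 held 7 of them more often than those without, 3 less often and 7 with an interval that included 0. The GC box GGGCGG, bound by SP and KLF factors, was in 56.6% of promoter windows with SNF5 and 39.0% without, against 39.5% of all ARID2 windows and 45.0% of 35116 RefSeq promoters of the same length (GRCh38). The ETS motif CCGGAAG was in 12.1% and 7.47%, against 7.93% of all windows and 10.3% of RefSeq promoters. GCGCATGCG, the core of the NRF1 site, was in 4.86% and 1.60%, against 2.80% of all windows and 1.92% of RefSeq promoters. The CRE TGACGTCA (2.36% and 0.934%, against 1.45% and 1.85%) and the E-box CACGTG (8.75% and 6.03%, against 7.30% and 7.26%) went the same way. The CCAAT box, the FOXA motif TGTTTAC and the C/EBP motif TTGCNNAA were less frequent with SNF5 in promoters. Their differences were -2.49 (-4.62 to -0.394), -0.870 (-1.72 to -0.114) and -1.44 (-2.84 to -0.111). A match describes the letters of a window and is not a bound site. Promoter peaks with SNF5 also lay closer to the TSS and were richer in GC. The part of position and base composition in these motif differences was not tested. Within 200 bp of the TSS the ETS motif was in 16.5% of windows with SNF5, 11.9% of near and 17.9% of far windows. The GC box was there in 66.5% of windows with SNF5 (65.0 to 68.0), 54.2% of near (50.1 to 58.2) and 56.0% of far windows (51.5 to 60.3).

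For the NRF1 and ETS motifs, far promoter peaks were closer to the peaks with SNF5 than near peaks were. The NRF1 core was in 3.49% of far and 0.544% of near promoter windows, a difference of 2.95 points (1.83 to 4.37). ETS was more frequent in far than in near windows by 5.52 points (3.30 to 7.93). Between peaks with SNF5 and far peaks the differences were 1.36 points (-0.124 to 2.52) for NRF1 and 1.08 points (-1.25 to 3.13) for ETS, so that a difference was not detectable, with the upper bounds as the largest these counts allow. The GC box did differ there, by 12.2 points (8.69 to 15.6). Within 200 bp of the TSS the NRF1 core was in 6.85% of windows with SNF5 (6.08 to 7.71), 5.97% of far windows (4.19 to 8.44) and 1.57% of near windows (0.830 to 2.96), so this contrast was also seen at one distance. The CRE had the same order, at 2.36% with SNF5, 1.64% in far and 0.544% in near promoter windows. So did the GC box (56.6%, 44.4% and 36.0%) and the E-box (8.75%, 7.21% and 5.38%). For the E-box the interval of far minus near included 0. For the GC box the near and far intervals overlapped at matched TSS distance. The near and far shares were 54.2% and 56.0% within 200 bp and 33.0% and 38.3% at 200 to 500 bp. At 500 to 1000 bp they were 21.2% and 22.0%. Some motifs did not follow the order of SNF5, far and near. The CCAAT box was in 28.5% of promoter windows with SNF5, 30.1% of near and 32.5% of far windows, and the CTCF core motif CCACNAGG was in 5.26%, 6.05% and 3.49%. For both, the near group was the closer one to the peaks with SNF5.

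Outside promoters the GC box was again more frequent with SNF5, together with motifs that were not called higher in promoters. Of the 17 motifs, 5 were higher with SNF5 there and 12 had an interval that included 0. The HNF4A motif CAAAGTCCA was in 2.20% of intron and distal windows with SNF5 and 1.00% without, a difference of 1.20 points (0.394 to 1.96). HNF4A is a nuclear receptor that defines hepatocyte identity. The FOXA motif was in 8.12% and 6.28%, a difference of 1.84 points (0.189 to 3.42), and C/EBP in 17.9% and 15.3%, a difference of 2.55 points (0.184 to 4.85). AP-1 (TGANTCA) was in 11.7% and 9.67%, a difference of 2.04 points whose interval began at 0.0695. The GC box differed most, at 17.6% and 10.7%, by 6.84 points (4.67 to 8.95). In promoters the FOXA and C/EBP motifs had the opposite direction, but only against all peaks without SNF5. Against far promoter peaks the difference was 0.0754 points (-1.19 to 0.988) for FOXA and -0.560 points (-2.72 to 1.30) for C/EBP. Over all ARID2 windows HNF4A was in 0.970%, FOXA in 4.19%, C/EBP in 11.7% and AP-1 in 6.87%. In RefSeq promoters the shares were 0.384%, 3.42%, 10.5% and 7.71%.

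By nearest gene, some names with more than 1 peak had peaks of both kinds. The peaks carried 7808 gene names, of which 4315 had every peak with SNF5, 2057 had none with it and 1436 had both kinds. A name with 1 peak can only fall on one side. Among 1701 names with 2 peaks, 745 had both with SNF5, 252 had none with it and 704 (41.4%) had 1 of each. Over all ARID2 peaks 67.2% were with SNF5. Whether the mixed names differ in number from what that share alone would give was not tested. Among 4982 names with a single peak 64.3% of peaks were with SNF5, and among the 239 names with 5 or more peaks it was 75.8% of 1687. Some names stand for many copies of a small RNA, among them U6 (30 of 49 peaks with SNF5), Metazoa_SRP (24 of 37), snoU13 (14 of 24), Y_RNA (13 of 28) and U1 (12 of 18), and were not read as single genes.

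The gene names of a single locus with the most peaks carrying SNF5 were CDC27P1 (14 of 15), FOXQ1 (14 of 16), ZNF217 (14 of 16), SLC7A5 (13 of 14) and PTP4A1 (12 of 12). All of them lie on the 6 autosomes of highest SNF5 share described below, and the part of the chromosome was not tested. All 15 CDC27P1 peaks carried the label multiple and lay in 1 run on chromosome 2, between 133018847 and 133034770. FOXQ1 is a forkhead factor, SLC7A5 a subunit of the large neutral amino acid transporter and PTP4A1 a tyrosine phosphatase. At SLC7A5 the single peak without SNF5 lay 11210 bp from the TSS and 3635 bp from SNF5. At ZNF217 the peaks without SNF5 were 91 and 54 bp wide, and 540 and 122 bp from SNF5. One SNF5 peak of 10497 bp (chr17:57914556-57925052) over VMP1 and MIR21, the gene of a microRNA often raised in tumours, overlapped 11 ARID2 peaks, more than any other. All 8 peaks named for MIR21 were with SNF5 and carried the label multiple.

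The single genes with the most peaks lacking SNF5 were ZNRF3, RERE and TRIM71, with 6 each, followed by CHD2, CMIP and SLC22A23 among those with 5. ZNRF3, a ubiquitin ligase that removes Wnt receptors from the cell surface, had 10 peaks, 6 without SNF5 at gaps of 93 to 2234 bp. RERE, a nuclear receptor corepressor, had 10, and the gaps of its 6 ran from 437 to 6083 bp. TRIM71 (8 of 14 with SNF5), CMIP (8 of 13), SLC22A23 (6 of 11) and CHD2, a chromatin remodeler (4 of 9), were mixed.

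At 3 gene names there were at least 4 ARID2 peaks and none with SNF5. At GPHN, which encodes the scaffold protein gephyrin, the 4 promoter peaks lay on chromosome 14 between 66973489 and 66975943, with gaps of 970, 99, 133 and 1060 bp, so that SNF5 was called close by. At IGF1R, the receptor of insulin-like growth factor 1, the gaps were 112, 28, 564 and 6851 bp. LINC00669 on chromosome 18 was unlike both. Its 4 peaks, of 52, 200, 1212 and 91 bp, lay between 2970966 and 2973330 bp from the nearest SNF5 peak, and all carried the label single.

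The liver factors and their targets were divided peak by peak. In the hepatocyte transcription factor list 36 of 52 peaks (69.2%, 55.7 to 80.1) were with SNF5, near the 67.2% of all ARID2 peaks. FOXA1, a pioneer factor of the liver, had 7 of 7, including a distal group of 4 peaks between 5109 and 7813 bp from the TSS. CEBPB and HHEX had 4 of 5. HNF4A had 2 of 4, and these did not follow class. Its peak at 29 bp from a TSS and an intron peak at 2538 bp were with SNF5, while the promoter peaks at 333 and 702 bp missed SNF5 by 74 and 175 bp. GATA4 also had 2 of 4. Among secreted plasma proteins 33 of 44 peaks (75%) were with SNF5, and the interval of 60.6 to 85.4 also included 67.2%. APOB, the structural protein of LDL, had 8 of 8, all labelled multiple. AFP, the fetal albumin-like protein that HepG2 secretes, had 1 of 5, all labelled single. The AFP peak with SNF5 was 52 bp wide and lay 33 bp from the TSS, and the 3 intron peaks were 106 to 663 bp from SNF5. The other most-bound genes of that list were ORM2 (2 of 3), ALB (1 of 2), APOA2 (2 of 2) and APOH (2 of 2).

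In the AP-1 family 21 of 24 peaks (87.5%) were with SNF5, with an interval whose lower bound was just above the 67.2% of all ARID2 peaks, and 17 of 18 in promoters, against 70.5% of all promoter peaks. JUN had 4 of 4, FOSB and FOSL2 had 3 of 3, ATF3 had 2 of 2, MAFK had 2 of 3 and ATF2 had 1 of 2. In the KLF and SP family it was 19 of 22 (86.4%), with an interval of 66.7 to 95.3 that included the 67.2% of all ARID2 peaks. There, KLF6, SP3 and SP5 had 3 of 3, KLF10 and KLF13 had 2 of 2 and KLF9 had 2 of 3. Neither family had a peak farther than 1000 bp from SNF5, but only 1788 of all 12995 ARID2 peaks lay that far. Other lists were low too, with 2 of 44 peaks of secreted plasma proteins and 3 of 82 of replication-dependent histones. Replication-dependent histones, many of them in the cluster on chromosome 6, had 70 of 82 (85.4%, 76.1 to 91.4). Outside the 6 chromosomes described below they had 16 of 21. HIST1H3PS1 had 8 of 8, HIST2H4B 4 of 4, HIST1H2BC 3 of 3, HIST1H1C 4 of 5 and HIST1H1PS1 3 of 4. HIST1H4B had 1 of 3, the one 1451 bp wide over its promoter, and its neighbours without SNF5 were 101 and 52 bp wide.

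Most of the other lists were near the 67.2% of all ARID2 peaks. The TGF-beta and SMAD pathway had 45 of 68 (66.2%), with TGIF1 at 5 of 5, ID3 at 4 of 5, FST, SMAD7 and TGFBR3 at 3 of 5 and SMAD3 at 2 of 5. At SMAD3, a receptor-activated SMAD, the promoter peaks of 103 and 932 bp were with SNF5 and the 3 intron peaks were not. Cholesterol and lipid synthesis had 34 of 52 (65.4%), with SREBF1, the SREBP-1 gene, at 5 of 6, ACSL3 at 4 of 5, INSIG2 at 4 of 4, ACLY at 3 of 3, SCAP at 2 of 4 and ACSS2 at 1 of 3. Cyclins and CDK inhibitors had 24 of 37 (64.9%), with CDKN1A at 5 of 7, CDKN2C at 4 of 6, CCNT2 and CDKN1B at 3 of 3, CCND1 at 1 of 3 and CCNE2 at 1 of 2. The CCND1 peak with SNF5 lay 73 bp from the TSS. Genes of the NRF2 oxidative stress response had 39 of 58 (67.2%), with NQO1 at 5 of 5, GCLC at 5 of 6, NFE2L2 at 4 of 5, UGDH at 2 of 5, SQSTM1 at 1 of 4 and ABCC2 at 1 of 3. Nuclear receptors had 27 of 39 (69.2%), with NR1D1 at 4 of 5, RARA at 3 of 4, NR4A1 at 2 of 3, ESRRA at 2 of 2, NR0B2 at 1 of 2 and PPARD at 1 of 4.

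SWI/SNF genes themselves had 25 of 35 peaks (71.4%) with SNF5, with an interval of 54.9 to 83.7 that included the 67.2% of all ARID2 peaks. ARID2 had 3 of 4 at its own gene, and the one without SNF5 was an exon peak of 239 bp, 84172 bp from the nearest SNF5 peak. SS18L1 had 4 of 4, SMARCE1 3 of 3, SMARCD2 2 of 3 and ARID1A 2 of 2. ACTL6A, the actin-related subunit, had 0 of 2, its promoter peak missing SNF5 by 31 bp.

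The remaining lists ran from 61.7% to 76.2%. Ribosomal proteins had 47 of 74 (63.5%) with RPS12 at 4 of 4, RPS29 at 4 of 5 and RPL15 at 0 of 3. Mitochondrial ribosomal proteins had 32 of 42 (76.2%) and proteasome subunits 34 of 48 (70.8%). Solute carriers were lowest with 127 of 206 (61.7%) and C2H2 zinc finger genes had 157 of 236 (66.5%). MicroRNA genes had 99 of 133 (74.4%), antisense and intergenic lncRNA genes 145 of 202 (71.8%), small nuclear and nucleolar RNA genes 159 of 229 (69.4%) and clone-named loci 1198 of 1750 (68.5%).

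From the SNF5 side, ARID2 was found under the larger peaks. Of 20718 SNF5 peaks, 6633 (32.0%) held at least 1 ARID2 peak. The 14085 that held none had a median width of 435 bp and a median deposited score of 18. The 5126 with 1 ARID2 peak had 808 bp and a score of 22, and the 407 with 3 or more had 2658 bp and a score of 25. A wide SNF5 peak can touch more ARID2 peaks, and the part of this in the rise of width was not tested. Of the ARID2 peaks with SNF5, 6273 of 8732 (71.8%) lay inside SNF5 over their whole width, and 52.1% had their midpoint in the central 50% of the SNF5 peak.

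The SNF5 share varied by chromosome more than by class. It was highest on chromosomes 20 (81.2%, 77.8 to 84.1), 2 (80.2%, 77.9 to 82.3), 16 (76.7%), 6 (75.4%), 17 (74.3%) and 14 (69.8%), among autosomes, and lowest on chromosome 4 (49.7%, 44.6 to 54.9). On the X chromosome 4 of only 22 peaks were with SNF5. On the 6 named autosomes combined 76.7% of peaks were with SNF5 (75.6 to 77.8) and on all other chromosomes 60.7% (59.6 to 61.8). The gap was present in promoters (79.6% and 64.7%), introns (70.8% and 47.9%) and the distal class (73.3% and 56.9%), and for single (56.5% and 44.3%) and multiple labels (92.7% and 84.3%). These 6 were grouped by their share, so this is a description. Chromosome 14 was itself divided. Below 50 Mb, 205 of 229 peaks (89.5%) were with SNF5, and above it 123 of 241 (51.0%), with promoter shares of 72.5% and 71.8%. ARID2 peaks were also denser below that point, at 8.88 per Mb against 4.33 per Mb above it. The 50 Mb point was chosen after the values were seen. Chromosome 6, cut at 60 Mb, had 78.2% below (74.8 to 81.2) and 71.1% above (66.5 to 75.3), with overlapping intervals.

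**Figure D5:**
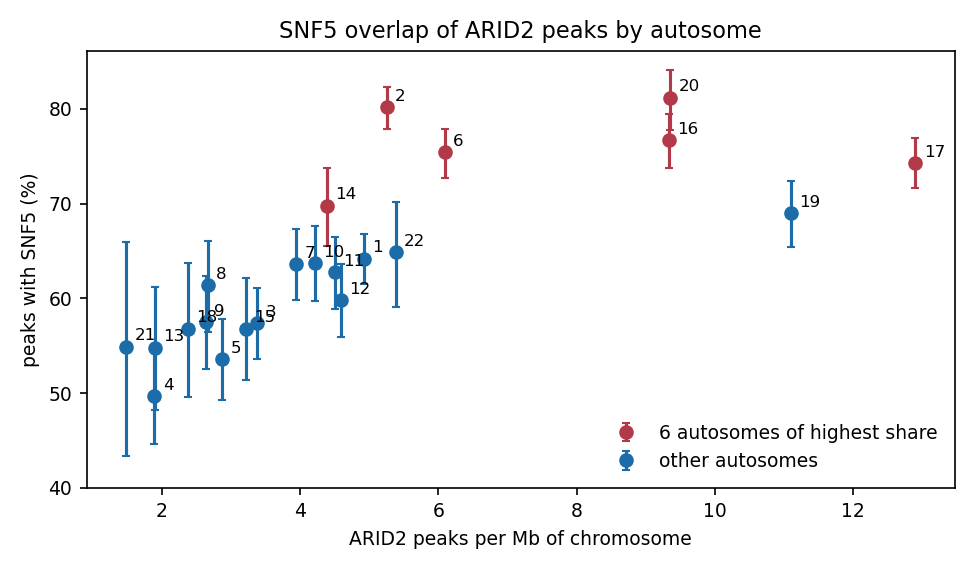
Share of ARID2 peaks with SNF5 (y axis, %, starting at 40) against ARID2 peaks per Mb of chromosome (x axis), 1 point per autosome with 95% Wilson intervals. The 6 autosomes of highest share are marked in red, and chromosome 2 has a share of 80.2% at 5.25 peaks per Mb, where chromosome 1 has 64.2% at 4.92.

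Other measures moved with the chromosome. Over the 22 autosomes the share rose with ARID2 peaks per Mb (Pearson correlation 0.766, Spearman correlation 0.883) and with median ARID2 width (0.899 and 0.887). These are descriptions over points that share the same 2 lists. The 2 lists hold no measure of DNA copy number, which can differ between chromosomes of a cancer line. The part of copy number, peak density, width or any other property of the chromosomes in this pattern was not tested. Without the 6 autosomes the differences kept their directions, with promoters at 11.6 points, introns at -9.10, a width ratio of 1.45 and GC content at 7.97 points.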

How the data were processed

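ChIP-seq of HepG2 cells was analysed from 2 deposited peak lists, 1 for ARID2 and 1 for SNF5, each from 2 replicates. Per the paper's methods the authors cut chromatin with micrococcal nuclease, mapped the reads with Bowtie2 (hg19), called broad peaks with MACS2, joined close peaks and removed blacklisted regions. The deposited ARID2 values are positions, feature class, distance to the TSS in bp, nearest gene and a label, and the deposited SNF5 list adds a score per peak whose scale is not given in the sources used here. Read depth is unknown, and peaks too weak to be called cannot be told apart from absent ones. The lists of ARID1A and ARID1B were not used here.

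Overlap meant at least 1 shared bp. GC content, CpG and 17 motifs were read from GRCh37 (the same assembly as hg19) with pysam 0.24.0, and signed positions from the GENCODE v44 annotation lifted to it. The deposited distance matched that of the peak midpoint within 2 bp for 30.9% of peaks, and the median mismatch was 3 bp. Shares have 95% Wilson intervals, differences of shares Newcombe intervals and medians exact binomial intervals (Python 3.11.15, scipy 1.17.1). A difference was called where its interval excluded 0, or where 2 intervals of medians did not overlap. Functions were tested on simulated data. No fit across replicates was possible.

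Members, 20 gene lists and motifs were chosen with earlier results of these data known. Named genes were, per list, up to 6 with the most ARID2 peaks. Added to them were the 10 names with the most peaks with SNF5, the 10 with the most without, every name with at least 4 peaks and none with SNF5, and the 5 widest peaks per group. Of the lists defined by a name pattern, the text prints only some of these genes. A few items that the rule names are not reported here. The alternatives varied the overlap rule, SNF5 score, chromosomes, width, joining of peaks, label and class.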

Additional observations from a re-analysis of the deposited data

How the results depend on the processing

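No paired analysis was possible because each deposited list merges both replicates of its antibody, and for the same reason no replicate could be left out. Of 103 alternative values for 8 results, 78 kept their direction and call. The alternatives by label, by midpoint, without the 6 autosomes and without near peaks were chosen after seeing the data. The share of ARID2 peaks with SNF5, 67.2%, depended on the rule. It was 7.56% for a reciprocal overlap of 50%, 60.4% where SNF5 covered 50% of the ARID2 peak, 60.6% by midpoint, 86.2% for a gap of up to 1000 bp and 50.8% for SNF5 scores of at least 20. It was 78.7% in the widest 50% of ARID2 peaks, 69.2% after joining, 60.7% without the 6 autosomes, 48.4% for the label single and 88.4% for multiple. The promoter difference, 10.0 points, kept its sign and call outside the multiple label but was 2.01 at a TSS distance of up to 5000 bp, 5.58 for SNF5 scores of at least 20, 5.92 within width strata, 6.30 for single peaks, 6.60 in the widest 50%, 15.4 after joining, 16.8 for reciprocal overlap, 17.4 at up to 500 bp and 18.3 for a gap of up to 1000 bp, and it was also larger without near peaks. For multiple peaks alone the promoter difference was -7.24 points, the intron difference 3.72, the distal difference 4.35, the GC difference -0.864 and the ratio of TSS distances 1.00. The distal difference was also not called at 50% coverage (-0.754), by midpoint (-0.809), for SNF5 scores of at least 20 (-0.00349), in the widest 50% (-0.0542) and for single peaks (-1.51), and it turned to 0.110 within 5 width strata. The ratio of TSS distances was 0.867 for a gap of up to 1000 bp, which moves near peaks to the other group. It was not called at 1.27 for reciprocal overlap, 1.03 without near peaks and 1.26 for single peaks. Beyond the construction of each alternative, the causes were not tested. Unknown depth limits every count of peaks without SNF5.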

Other observations

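The ARID2 list also names a chromatin state for each peak, which no comparison above used. The state active promoter was given to 63.7% of promoter peaks, but also to 60.4% of intron and 55.1% of distal peaks. Distal peaks given that state had a median GC content of 50% and distal peaks given the state strong enhancer also had 50%, while promoter peaks had 61.5% and 60.7% under the same states. Strong enhancer was the state of 18.0% of promoter, 22.5% of intron and 22.3% of distal peaks. The state column therefore followed the class only weakly, and within a class the GC content differed little between these states. Its alignment with the rows of the list was not tested, and its shares are given as deposited. Active promoter was the state of 61.0% of peaks with SNF5, 64.1% of near and 63.4% of far peaks without SNF5, and strong enhancer of 20.9%, 16.8% and 15.4%. In the promoter class 75.4% of strong enhancer peaks were with SNF5 against 69.5% of active promoter peaks, in introns 65.6% against 56.2% and in the distal class 72.2% against 62.2%.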
